A study of Mus musculus with 12 samples.

Results

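The 44 mouse genes described here encode proteins of the lysosome: 13 proteases, 11 enzymes that cleave glycans, 6 proteins of lipid breakdown, 6 genes grouped as membrane proteins together with progranulin, 6 genes of the proton pump and 2 transcription factors. They were listed by symbol, with earlier results of these data known. All 44 were found among the 32622 genes measured in each library. RNA-seq libraries came from the epididymal fat pad (epWAT) and the subcutaneous fat pad (scWAT) of 6 mice, 3 of them wild type (WT) and 3 labelled C2orf74 KO. All mice, controls included, began a high-fat diet at 8 weeks of age and stayed on it for 12 weeks. The 4 groups are therefore KO epWAT, WT epWAT, KO scWAT and WT scWAT, each with 3 libraries. Strain, sex and the way the allele was made are not given in the sources used here. Mice are named by the codes in the labels, C7, C34 and C695 for KO and C75, C85 and C99 for WT, and library values are listed in those orders. Nothing in the labels says that animals were pooled.

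Lysosomes are acidic organelles that break down proteins, glycans and lipids delivered by endocytosis, phagocytosis and autophagy. A vacuolar-type ATPase (V-ATPase) pumps protons into them, cathepsins and other acid hydrolases do the digestion, and the transcription factors TFEB and TFE3 can bind an E-box-like element in the promoters of many of the genes. In white fat every cell has lysosomes, while macrophages are known to be rich in them, and macrophages of obese fat take up lipid released by adipocytes.

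Because the members are read as a group, their promoters were searched for this element. RefSeq windows (GRCm38.p6) from 250 bases before to 50 bases after a transcription start matched 37 members by symbol. Atp6v0d2, Ctsb, Galns, Ctsh, Atp6v1b2, Atp6v1h and Asah1 had no entry. The string GTCACGTG, searched on both strands, occurred in 10 of the 37 members (27.0%), against 2.55% of 27025 genes with a window. Its 9-letter extension GTCACGTGA occurred in 6 members (16.2%), against 0.9% of genes, and the palindrome TCACGTGA in 7 (18.9%), against 1.12%. These strings overlap one another and all contain CACGTG, which occurred in 14 members (37.8%) and in 8.09% of genes. As said above, the element is known from promoters of many of these genes, so its share among them describes the set and tests nothing. The 5 sequences below are from members with GTCACGTGA, and Atp6v0d1, which also had this string in its window, is not shown. Each is written 5′ to 3′ on the strand of the gene, lies wholly before the RefSeq start, and has its longest match in capitals. The Mcoln1 stretch also opens with CACGTG, left in lower case.
Cln3, chr7:126583325-126583384, minus strand: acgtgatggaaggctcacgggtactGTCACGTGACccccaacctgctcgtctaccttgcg
Ctsa, chr2:164833734-164833772, plus strand: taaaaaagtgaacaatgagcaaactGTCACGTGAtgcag
Ctsd, chr7:142387893-142387951, minus strand: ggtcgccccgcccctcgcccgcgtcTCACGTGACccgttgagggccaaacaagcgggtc
Gla, chrX:134601168-134601226, minus strand: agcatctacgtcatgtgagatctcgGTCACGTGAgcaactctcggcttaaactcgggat
Mcoln1, chr8:3500448-3500506, plus strand: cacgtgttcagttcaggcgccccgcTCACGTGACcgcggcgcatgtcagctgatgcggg
The match ended 114 bases before the start in Cln3, 6 in Ctsa, 91 in Ctsd, 188 in Gla and 38 in Mcoln1. The median log2 difference between KO and WT in epWAT was -0.55 over members with GTCACGTG and -0.50 over those without, -0.69 and -0.46 for GTCACGTGA, and -0.73 and -0.46 for TCACGTGA. Between scWAT and epWAT of WT mice the same medians were -0.55 and -0.52, -0.72 and -0.50, and -0.81 and -0.49. A match describes the letters of the window and is not evidence of binding.

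Recovered depths were 15011093 to 18311564 reads per library. Every member had FPKM (reads per length of exon and per depth of the library) above 1 in enough libraries to be tested in every comparison, and the lowest recovered count of a member in a library was 29 reads. KO epWAT C7 held epididymal and germ cell transcripts, with a summed marker level of 401.0 FPKM against 8.76 in KO epWAT C695 and at most 1.216 elsewhere. KO scWAT C695 held B and T cell transcripts, at 237.6 FPKM against at most 13.53 elsewhere. The targeted gene, taken to be 1700093K21Rik, was at most 0.0592 FPKM in KO and at most 0.2721 FPKM in WT libraries. In scWAT every KO library lay below every WT library (2-sided exact permutation p = 0.1, which is the smallest this design can give), whereas in epWAT the genotypes overlapped (exact permutation p = 0.4), so the labels of the epWAT libraries could not be checked by it. Results that rest on KO epWAT C7 or KO scWAT C695 are given with and without them.

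KO against WT in epWAT. Nearly the whole set had lower values in KO epWAT than in WT epWAT, although no gene of the genome passed the test. Of the 44 members, 40 were lower and 4 (Smpd1, Ctso, Ctsf and Ctsc) were higher, with a median log2 difference of -0.58. Among all 12722 genes tested, 66.4% were lower and the median was -0.10. Summed over the members, KO libraries had 4622, 3129 and 2742 FPKM and WT libraries 7715, 5647 and 6393 FPKM, so that the groups did not overlap. All KO libraries lay below all WT libraries for 34 members, while this held for 29.2% of all tested genes. The reverse held for 2 members, Smpd1 and Ctso, and for 9.6% of genes. By limma with Benjamini-Hochberg adjustment, 0 of 44 members and 0% of all genes passed an adjusted p of 0.05. The smallest adjusted p of a member was 0.066 and the smallest of any gene 0.0533, and 36 members and 29.8% of all genes had an unadjusted p under 0.05. Limma-voom on recovered reads also called 0.

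The calls in epWAT changed when 1 library was left out, and also with the fit used. When KO C7, which held epididymal transcripts, was left out, 33 members were called lower and 0 higher, against 11.6% of all genes called lower, and the median was -0.73; 14 of 19 macrophage markers were called then too. Leaving out any other library of this comparison gave 0 calls. With the mouse as a random effect (replicate block) in a fit over the 12 libraries, 27 members were called lower (11% of all genes were). Each mouse gave 1 epWAT library, so this comparison itself held no pairs. A spread shared over the 12 libraries, without a block, also called 27 lower, against 10.8% of genes.

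**Figure D1:**
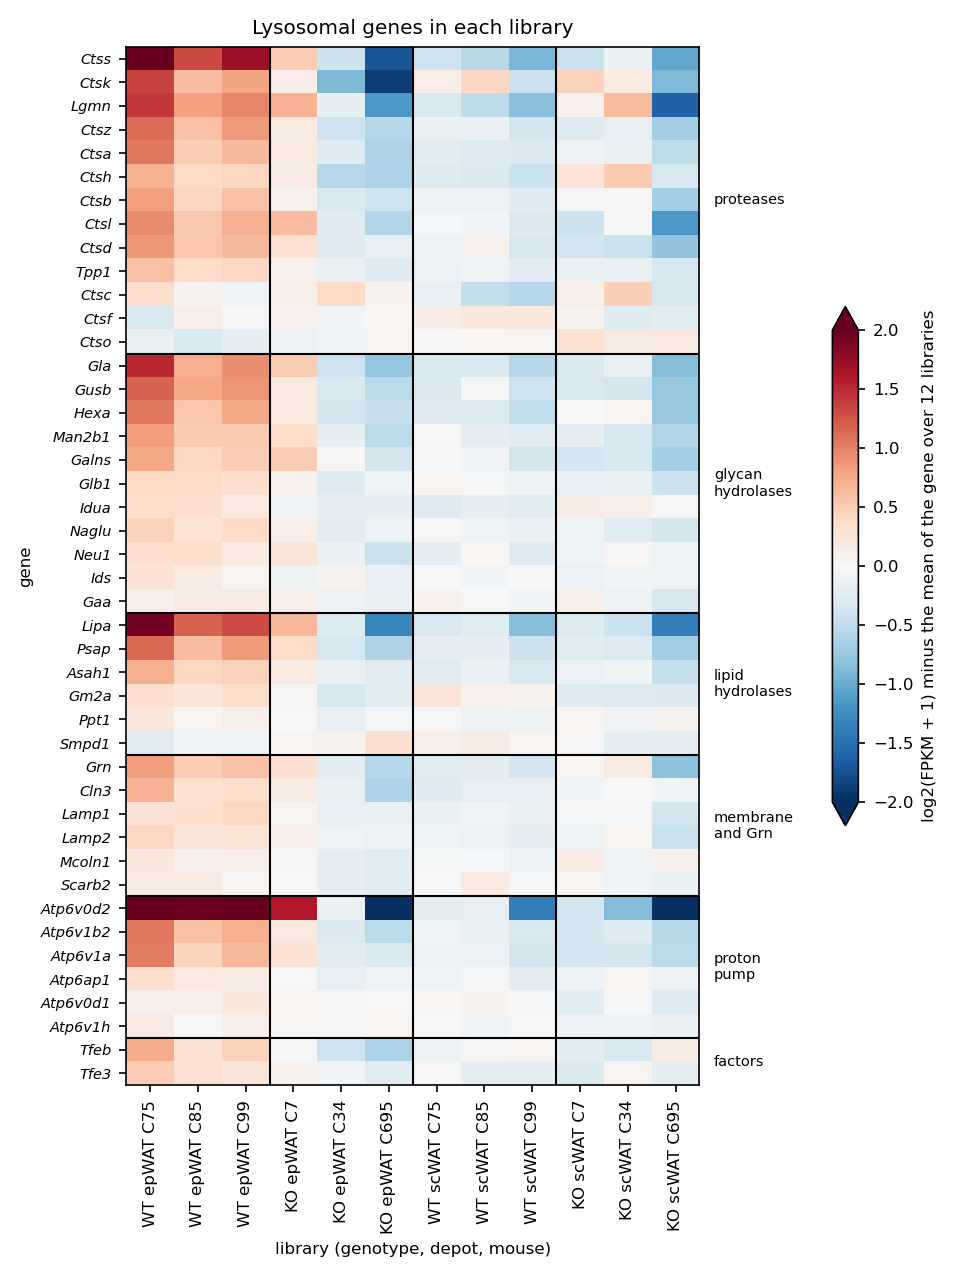
Levels of the 44 genes in the 12 libraries. Each row is a gene, ordered by role, each column a library, and colour gives log2(FPKM + 1) minus the mean of that gene over the libraries, cut at 2 in both directions; the 3 WT epWAT columns are red in nearly every row, KO epWAT C7 lies between them and the other KO epWAT libraries, and KO scWAT C695 is blue in most rows.

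Among the proteases, cathepsin S and cathepsin K had the largest differences. Ctss, a cysteine protease of antigen-presenting cells (chromosome 3, 95526786 to 95556403, plus strand), had 735.5, 423.5 and 558.5 FPKM in WT epWAT and 240.5, 125.3 and 50.67 FPKM in KO epWAT. The groups were far apart, with means of 572.5 ± 156.5 and 138.8 ± 95.6 FPKM (SD, n = 3) and a log2 difference of -2.26 ± 0.55 (SE; adjusted p = 0.0715). Ctsk, a collagen-degrading cathepsin whose gene lies next to it (95499256 to 95509362), had 150.7, 89.45 and 101.5 FPKM in WT and 63.69, 30.75 and 15.02 FPKM in KO, a log2 difference of -1.81 ± 0.50 (adjusted p = 0.0809). In both genes C695 was the lowest library and the KO libraries stayed below the WT libraries.

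Cathepsin B was the most abundant protease. Ctsb had 867.7, 662.2 and 744.3 FPKM in WT and 526.3, 395.7 and 369.3 FPKM in KO, a log2 difference of -0.82 ± 0.17 (adjusted p = 0.0667). Ctsz, a carboxypeptidase, had 439.9, 303.8 and 364.2 FPKM in WT and 226.9, 150.4 and 134.8 FPKM in KO (-1.13 ± 0.23; adjusted p = 0.0667). Neither gene had overlapping groups. The aspartic protease gene Ctsd had 600.8, 487.1 and 518.7 FPKM in WT and 409.5, 273.1 and 295.8 FPKM in KO, a log2 difference of -0.73 ± 0.18 (adjusted p = 0.0709). Ctss lay above Ctsd in 2 of the 3 WT epWAT libraries and below it in all 3 KO epWAT libraries. Expressed as a ratio to Ctsb in the same library, Ctss was 0.746 ± 0.104 in WT epWAT and 0.304 ± 0.16 in KO epWAT (SD, n = 3), with no overlap between the genotypes.

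Legumain and cathepsin L had lower values with more spread. Lgmn encodes the asparaginyl endopeptidase legumain, which cleaves cathepsins. Its levels were 234.3, 154.7 and 173.0 FPKM in WT and 142.3, 77.04 and 39.14 FPKM in KO (log2 difference -1.28 ± 0.45, limma adjusted p = 0.123). Ctsl, an endopeptidase, had 237.9, 178.9 and 201.2 FPKM in WT against 188.8, 101.9 and 81.16 FPKM in KO, and here KO C7 lay above WT C85 (-0.81 ± 0.31; adjusted p = 0.144). Tpp1, the tripeptidyl peptidase, differed less but with little spread, at 49.13, 42.17 and 43.51 FPKM against 34.5, 29.18 and 27.08 FPKM (-0.56 ± 0.11; adjusted p = 0.0667). Ctsa, the carboxypeptidase that also stabilizes beta-galactosidase and neuraminidase, had 96.62, 65.73 and 72.16 FPKM against 52.91, 38.07 and 30.02 FPKM (-0.96 ± 0.23). Ctsh, an aminopeptidase, had 38.59, 31.07 and 31.7 FPKM against 26.47, 15.67 and 15.03 FPKM (-0.83 ± 0.22). Both kept the KO libraries below the WT libraries. The exceptions were Ctsc, Ctsf and Ctso, with log2 differences of 0.08, 0.09 and 0.17. Over the 13 proteases, 10 were lower, 0 passed and the median was -0.82.

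All 11 glycan hydrolases were lower in KO epWAT, with a median of -0.46 and 0 calls. Gusb, beta-glucuronidase, had one of the 2 smallest adjusted p-values among the members. Its levels were 78.28, 58.83 and 63.43 FPKM in WT and 39.23, 26.99 and 23.2 FPKM in KO, a log2 difference of -1.16 ± 0.21 (adjusted p = 0.066). Hexa, the alpha subunit of beta-hexosaminidase, had 166.1, 118.3 and 136.8 FPKM in WT and 91.38, 61.88 and 58.01 FPKM in KO (-1.0 ± 0.21; adjusted p = 0.0667). In both genes the highest KO library was far below the lowest WT library.

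Idua, the iduronidase of dermatan and heparan sulfate breakdown (chromosome 5, 108660331 to 108684557, plus strand), was a low but even gene, with 7.383, 7.282 and 6.525 FPKM in WT and 5.217, 4.718 and 4.754 FPKM in KO (-0.45 ± 0.08; adjusted p = 0.066). Of its 4204 exon bases, 124 overlap Dgkq and 141 overlap Slc26a1 on the opposite strand. The strand setting of the counting is not given, so reads in these stretches cannot be told apart; the mean level of Dgkq was 1.679 (KO) against 2.07 FPKM (WT) for epWAT and 2.109 (KO) against 1.902 FPKM (WT) for scWAT, so its means had the same directions as those of Idua in both depots. Slc26a1 averaged at most 0.3412 FPKM in any group. The part of these reads in the Idua values was not tested. Galns, which acts on keratan and chondroitin sulfate, had 16.74, 12.88 and 13.72 FPKM in WT and 13.79, 9.492 and 7.064 FPKM in KO, with overlapping groups (-0.51 ± 0.23). The alpha-galactosidase gene Gla differed most in this group (-1.28 ± 0.36; adjusted p = 0.0835) and the acid alpha-glucosidase gene Gaa least (-0.20 ± 0.09; adjusted p = 0.198).

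Psap was the most abundant of the 44 genes in every group. It encodes prosaposin, the precursor of the saposins that present sphingolipids to their hydrolases. Psap had 2263, 1568 and 1844 FPKM in WT epWAT and 1314, 803.7 and 670.7 FPKM in KO epWAT (-1.07 ± 0.28; adjusted p = 0.076). Lipa, the acid lipase of cholesteryl ester and triglyceride breakdown, showed the largest difference among the lipid genes, with 220.2, 130.5 and 142.3 FPKM in WT and 91.39, 47.33 and 22.66 FPKM in KO (-1.77 ± 0.49; adjusted p = 0.0817). In each of them all KO libraries were below all WT libraries.

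Gm2a, the activator protein that lifts GM2 ganglioside out of the membrane for hexosaminidase, had 81.93, 77.25 and 83.71 FPKM in WT and 65.87, 50.8 and 55.62 FPKM in KO (-0.50 ± 0.11; adjusted p = 0.0675). Asah1, acid ceramidase, had 64.69, 52.32 and 54.41 FPKM against 44.61, 35.19 and 32.94 FPKM (-0.60 ± 0.14; adjusted p = 0.0704). Smpd1, acid sphingomyelinase, which makes ceramide, was the exception, with 28.14, 31.42 and 30.81 FPKM in WT and 34.29, 34.53 and 41.12 FPKM in KO (0.27 ± 0.10; adjusted p = 0.125). Its KO libraries lay above the WT libraries, while those of Asah1, which removes ceramide, lay below, and neither gene passed the test. The group of 6 lipid genes had 5 lower members and a median of -0.55.

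**Figure D2:**
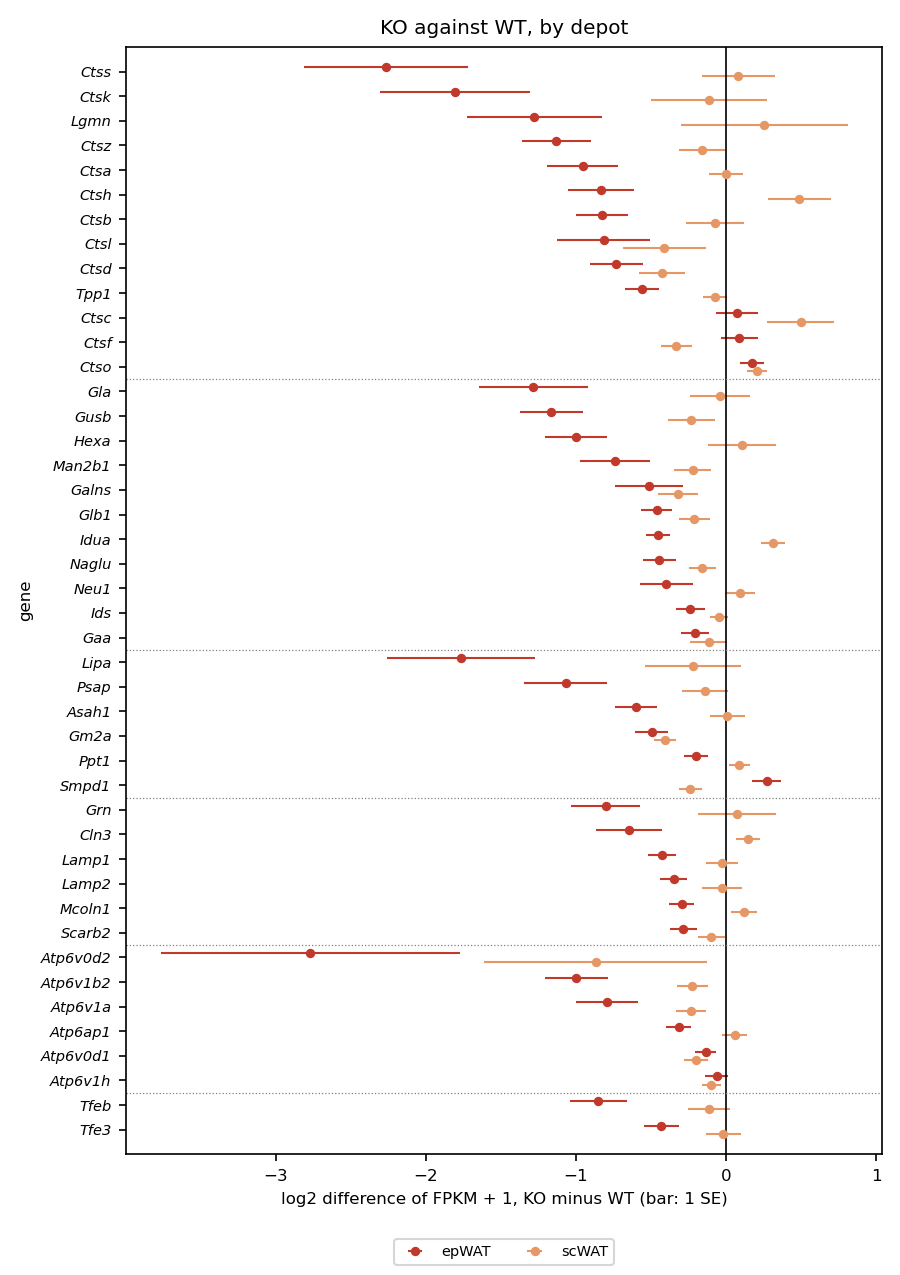
KO minus WT log2 difference of FPKM + 1 for each gene in epWAT and in scWAT, grouped by role with dotted lines between the groups. Points are fitted differences and bars 1 SE; in epWAT 40 of the 44 points lie left of 0, in scWAT 29.

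The 6 membrane genes were all lower, by smaller amounts, with all KO libraries below all WT libraries in each of them and a median of -0.39. Lamp1, the abundant membrane glycoprotein that lines the lysosome, had 271.6, 276.9 and 294.4 FPKM in WT and 229.7, 198.3 and 200.1 FPKM in KO (-0.43 ± 0.09; adjusted p = 0.0673). Lamp2, its relative with a role in chaperone-mediated autophagy, had 43.96, 39.07 and 39.77 FPKM against 35.23, 30.79 and 30 FPKM (-0.35 ± 0.09; adjusted p = 0.076). The calcium release channel gene Mcoln1 had 8.634, 7.915 and 7.986 FPKM against 7.109, 6.322 and 6.031 FPKM (-0.30 ± 0.08; adjusted p = 0.0841). These log2 differences are smaller in size than the protease median of -0.82. Grn, progranulin, had the largest difference of the group, with 228.9, 182.0 and 193.7 FPKM in WT and 160.6, 109.0 and 86.27 FPKM in KO (-0.80 ± 0.23; adjusted p = 0.086). Cln3, mutated in a juvenile neuronal storage disease, had a log2 difference of -0.65 ± 0.22, but 442 of its 5781 exon bases overlap the opposite-strand gene Apobr, whose mean was 12.32 FPKM in WT epWAT and 5.671 in KO epWAT. Its reads in that stretch cannot be separated from those of Apobr.

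All 6 V-ATPase genes were lower (median -0.55), by very different amounts. Atp6v0d2, the d2 subunit of the membrane sector known from osteoclasts and macrophages (chromosome 4, 19876841 to 19922605, minus strand), had 104.9, 52.52 and 67.09 FPKM in WT epWAT and 41.04, 11.58 and 1.3 FPKM in KO epWAT. Its log2 difference of -2.77 ± 1.00 was the largest of the 44, and the spread among the KO libraries was the widest (adjusted p = 0.129). Atp6v0d1, the widely expressed form of the same subunit, had 73.99, 73.65 and 79.85 FPKM in WT and 70.56, 66.98 and 69.33 FPKM in KO (-0.13 ± 0.07; adjusted p = 0.244), and its difference was 0.01 after upper-quartile scaling. The ratio of d2 to d1 in a library was 1.417, 0.713 and 0.840 in WT epWAT and 0.582, 0.173 and 0.0188 in KO epWAT. Of the 4 osteoclast markers listed, Calcr, Ocstamp and Oscar were at most 1.003 FPKM in any library, and Calcr was at 0 in 11 of 12. The fourth, Dcstamp, had 6.795, 2.941 and 4.533 FPKM in WT epWAT and 2.425, 2.031 and 0.234 FPKM in KO epWAT, with all KO libraries below all WT libraries (-1.24 ± 0.44; adjusted p = 0.124). The sums of these 4 ranged from 3.872 to 7.859 FPKM in WT and from 0.7047 to 3.067 FPKM in KO epWAT. Acp5, also known from osteoclasts but listed with the other hydrolases, went the other way. It had 84.62, 105.9 and 103.8 FPKM in WT epWAT and 131.5, 127.6 and 118.9 FPKM in KO epWAT. The part of osteoclast-like cells in the Atp6v0d2 and Ctsk values was not tested.

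The catalytic sector also had uneven values. Atp6v1a, the subunit that hydrolyses ATP, had 60.69, 40.06 and 46.8 FPKM in WT and 35.77, 24.8 and 23.51 FPKM in KO (-0.79 ± 0.21; adjusted p = 0.0769). Atp6v1b2, the B subunit beside it, had 90.44, 64.88 and 71.76 FPKM against 49.21, 35.11 and 29.48 FPKM (-1.0 ± 0.21; adjusted p = 0.0667). Atp6v1h, the regulatory H subunit, overlapped between the genotypes, with 12.01, 10.35 and 11.44 FPKM in WT and 10.62, 10.63 and 10.93 FPKM in KO (-0.06 ± 0.08; adjusted p = 0.611). Atp6ap1, an accessory subunit, had 78.7, 71.02 and 69.14 FPKM against 61.81, 54.8 and 58.58 FPKM (-0.32 ± 0.08; adjusted p = 0.0786).

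Both transcription factor genes had lower values. Tfeb had 7.286, 5.028 and 5.785 FPKM in WT epWAT and 3.868, 2.703 and 2.209 FPKM in KO epWAT (-0.85 ± 0.19; adjusted p = 0.0682). Tfe3 had 9.231, 7.84 and 7.432 FPKM against 6.53, 5.807 and 5.071 FPKM (-0.43 ± 0.12; adjusted p = 0.0788). In neither did the groups overlap. Mitf, a relative of both that is no member of the 44, had a mean of 3.22 ± 1.23 FPKM for KO and of 7.39 ± 1.19 FPKM for WT (SD, n = 3; -1.02; adjusted p = 0.0671). Transcript levels say nothing of where these factors were in the cell, which is the step at which they are mainly controlled.

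Marker genes of macrophages and adipocytes also had different values between the genotypes. The 20 macrophage markers, which share no gene with the lysosomal lists, were all detected. Their sums ranged from 732.9 to 1775 FPKM in KO and from 2453 to 3450 FPKM in WT epWAT. The lysozyme gene Lyz2 was the largest part of them, with means of 508.9 FPKM in KO and 1308 FPKM in WT epWAT. Of 19 tested, 18 were lower and 0 passed, with a median of -1.13. Adgre1, which encodes F4/80, had 120.8, 82.99 and 82.17 FPKM in WT and 50.32, 27.78 and 13.47 FPKM in KO. The receptor gene Csf1r averaged 43.4 ± 17.4 FPKM against 89.7 ± 14.7 FPKM in WT (adjusted p = 0.0794). Cd68, a macrophage protein listed with the other lysosomal membrane genes, averaged 86.6 ± 63.6 against 302.7 ± 84.8 FPKM (adjusted p = 0.0817), and Trem2, the receptor of lipid-associated macrophages, 9.28 ± 9.01 against 38.7 ± 13.5 FPKM (adjusted p = 0.0982). All 8 markers of lipid-associated macrophages were lower (median -2.20). The sums of 10 adipocyte markers ranged from 10110 to 14020 FPKM in KO and from 6810 to 8847 FPKM in WT epWAT, with 9 of 10 higher (median 0.54, 0 calls). Cfd had the widest gap of the 10 in FPKM, with means of 3267 in KO and 955.8 in WT epWAT. It was also higher in KO scWAT (6138 against 2567 FPKM), where the median of the list was -0.03. In bulk tissue, fewer cells of a type and less RNA per cell cannot be told apart, and the part of the cell mix in the lysosomal result was not tested. Fibroblast and endothelial lists had medians of -0.30 and 0.03.

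**Figure D3:**
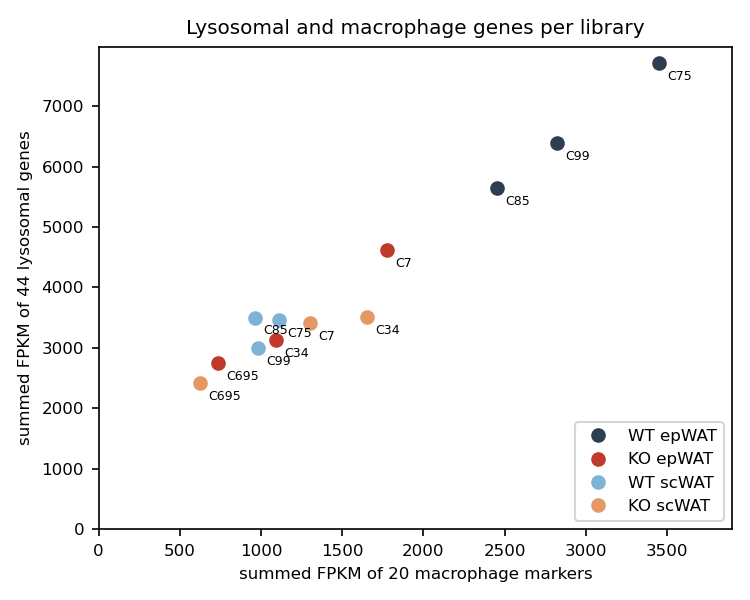
Summed FPKM of the 44 lysosomal genes (vertical axis) against summed FPKM of 20 macrophage markers outside the lysosomal lists (horizontal axis), with 1 point per library and the mouse code beside it. WT epWAT libraries lie at the upper right (5647 to 7715 on the vertical axis), KO epWAT C7 at 4622, and the other 8 libraries between 2419 and 3507.

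Mice of a group differed together across the set. In KO epWAT, C7 was the highest of the 3 libraries for 39 of 44 members, against 45.2% of all tested genes, and C695 the lowest for 31, against 51.5%. In WT epWAT, C75 was the highest for 36 members, against 44.6% of genes. In KO scWAT, C695 was the lowest for 36 (26.1% of genes), and in WT scWAT C99 was the lowest for 36 (34.4%). Macrophage markers had the same extremes in KO: 18 of 19 were highest in epWAT C7, and 18 of 19 were lowest in C695 in each depot. In WT epWAT 17 of 19 were highest in C75. In WT scWAT, unlike the members, 10 were lowest in C85 (38.1% of genes) and 7 in C99. All 6 fibroblast markers were also lowest in C695 in KO scWAT. The members share their libraries and are not independent measurements of these orders.

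The lists of other lysosomal genes, also chosen with earlier results of these data known, had the same direction in epWAT. Of 59 other hydrolase, pump and membrane genes tested, 54 were lower with a median of -0.36, and 0 passed. Without KO C7, 27 of the 59 were called lower and 0 higher. The other hydrolases (21 of 22 lower, median -0.30) had Dnase2a, an acid DNase, at the smallest p, with 3.74 FPKM in KO and 10.5 in WT (means; log2 difference -1.32, adjusted p = 0.0704). Acp5 was the exception, with means of 126.0 FPKM in KO and 98.11 FPKM in WT. The other pump genes (13 of 14 lower, median -0.37) had Atp6v0b, a proteolipid subunit, at -0.59 (limma adjusted p = 0.066). Genes grouped as other membrane genes (20 of 23 lower, median -0.43) had Npc2, a carrier of cholesterol, at -0.72 (limma adjusted p = 0.0621). Among 9 sorting genes, which tag enzymes with mannose 6-phosphate or carry them, 8 were lower (median -0.21). Nagpa, which uncovers the mannose 6-phosphate tag, had the smallest p, at 8.32 against 16.5 FPKM (-0.91, adjusted p = 0.0533), and Igf2r, a mannose 6-phosphate receptor, the largest difference, at 14.5 against 34.4 FPKM (-1.15, adjusted p = 0.082), while Sort1, the sorting receptor sortilin, was at 0.46. Of 13 nutrient-sensing genes 11 were lower (median -0.13), with Flcn, a regulator of TFE3 and TFEB, at -0.46 (adjusted p = 0.0667). Both tested cystatins, inhibitors of the cathepsins, were lower, with Cstb at 135.8 against 275.7 FPKM (-1.06, adjusted p = 0.0729).

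KO against WT in scWAT. In the subcutaneous pad the members had mostly small differences in both directions. Summed over the members, KO libraries had 3403, 3507 and 2419 FPKM and WT libraries 3460, 3500 and 2997 FPKM, with overlapping groups. Of 44 members, 29 were lower and 15 higher, the median log2 difference was -0.09 (0.01 over all genes), and 0 passed, against 0.317% of 12614 genes; 7 members and 17% of all genes had an unadjusted p under 0.05. KO libraries lay below WT libraries for 9 members (13.4% of all genes did) and above them for 3 (11.1%).

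Gm2a had the smallest p, with 77.74, 68.78 and 67.82 FPKM in WT scWAT and 54.31, 53.36 and 52.9 FPKM in KO scWAT (-0.41 ± 0.07; adjusted p = 0.0899). The KO libraries were nearly identical and all below WT, and the log2 difference in epWAT was -0.50. Ctsd had 307.5, 350.6 and 262.2 FPKM in WT and 253.6, 242.0 and 189.8 FPKM in KO (-0.42 ± 0.15; adjusted p = 0.239). Atp6v0d1 had 70.44, 72.25 and 67.88 FPKM against 59.26, 67.12 and 57.3 FPKM (-0.20 ± 0.08; adjusted p = 0.285). In both, all KO libraries lay below all WT libraries.

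Other members of small p had values in either direction. Idua had 4.422, 4.793 and 4.598 FPKM in WT scWAT and 6.262, 6.106 and 5.514 FPKM in KO scWAT (0.31 ± 0.08; adjusted p = 0.143). Ctso had 13.44, 14.17 and 14.18 FPKM against 17.19, 15.71 and 15.84 FPKM (0.21 ± 0.07; adjusted p = 0.207), and was higher in KO in both depots. Smpd1, at 35.55, 37.12 and 33.64 FPKM in WT and 32.41, 28.44 and 28.94 FPKM in KO, was lower (-0.24 ± 0.08; adjusted p = 0.207). Ctsf, a cysteine cathepsin, had 36.37, 37.85 and 38.41 FPKM against 34.54, 27.12 and 27.79 FPKM (-0.33 ± 0.10; adjusted p = 0.198). Galns overlapped, at 9.182, 8.923 and 7.082 FPKM in WT and 6.929, 7.137 and 5.508 FPKM in KO (-0.32 ± 0.13).

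The remaining proteases overlapped between the genotypes in scWAT. Ctsb had 457.9, 454.6 and 412.3 FPKM in WT and 477.9, 498.8 and 308.8 FPKM in KO. Ctsk had 80.76, 66.47 and 31.08 FPKM in KO scWAT, and Ctsl 91.03, 121.1 and 54.66 FPKM. Lgmn had the widest spread, with 92.73, 137.0 and 27.89 FPKM in KO against 70.5, 60.79 and 48.81 FPKM in WT. In each of these C695 was the lowest KO library. Of the glycan and lipid genes, Gusb had 27.37, 26.24 and 19.63 FPKM in KO scWAT, Hexa 79.43, 83.13 and 46.6 FPKM, Psap 862.0, 840.8 and 627.2 FPKM and Lipa 47.37, 42.12 and 21.55 FPKM. Their log2 differences were -0.23, 0.11, -0.14 and -0.22. Among membrane genes, Lamp1 had 216.7, 216.0 and 171.3 FPKM, Lamp2 30.78, 33.97 and 23.78 FPKM and Grn 132.0, 145.1 and 71.89 FPKM in KO scWAT. For these membrane genes C7 and C34 lay above the WT libraries and C695 below them. Tfeb had a different order, with C695 highest, at 3.302, 2.953 and 4.503 FPKM in KO scWAT, and Tfe3 had 4.883, 6.406 and 5.241 FPKM.

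KO scWAT C695 was the lowest library of its group for most members, and without it 1 member, Ctsh, was called higher (adjusted p = 0.0489), against 0.414% of genes, with a median of 0.01 over the 44. With that library Ctsh had 28.78, 34.32 and 18.7 FPKM in KO and 19.41, 19.13 and 17.26 FPKM in WT (0.49 ± 0.21; adjusted p = 0.312). Ctss had 126.2, 114.5 and 89.21 FPKM in WT scWAT and 123.7, 151.5 and 81.86 FPKM in KO scWAT (0.08 ± 0.24). The macrophage sums ranged from 625.5 to 1653 FPKM in KO and from 962.7 to 1110 FPKM in WT scWAT, with 14 of 19 higher (median 0.10) and 0 called; their part was not tested. Of the 59 other lysosomal genes 33 were lower (median -0.02), and Atp6v0a1, a membrane subunit of the pump, had the smallest adjusted p among them (-0.51; adjusted p = 0.0896). Sorting, nutrient-sensing and cystatin lists had medians of 0.03, -0.06 and -0.32 with 0 called.

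scWAT against epWAT in WT mice. The depots of WT mice differed clearly, and most lysosomal genes fell from epWAT to scWAT. Of 44 members, 32 were called lower in scWAT and 1, Ctso, higher, against 14.9% and 7.49% of 12760 genes; the median log2 difference was -0.62 (-0.04 over all genes). WT epWAT is also the control of the KO comparison in epWAT, so the 2 results share those libraries and are set side by side only. Leaving out 1 library at a time called 27 to 30 members, all lower. The share of all genes called lower was then 9.53%, 11.7% and 9.72% without WT epWAT C75, C85 and C99, and 11.9%, 8.58% and 7.37% without WT scWAT C75, C85 and C99. With the mouse as a block 34 members were called lower and 1, Smpd1, higher, against 19% and 10.8% of genes.

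Ctss had the smallest p, with 126.2, 114.5 and 89.21 FPKM in WT scWAT below the 423.5 to 735.5 FPKM of WT epWAT, and fell by 2.35 on the log2 scale (SE 0.22; adjusted p = 0.00393). Grn fell to 108.9, 110.7 and 97.8 FPKM (-0.92 ± 0.10; adjusted p = 0.00431). Lgmn fell to 70.5, 60.79 and 48.81 FPKM (-1.62 ± 0.19; adjusted p = 0.00471), and Ctsh, the aminopeptidase cathepsin, fell by 0.82. Of the 13 proteases 11 were lower, and 10 of them were called. Ctso was called higher, by 0.24 (SE 0.06, limma adjusted p = 0.0431). The Ctso call was lost without any 1 of the 6 libraries and with the mouse as a block. Ctsl, at 120.6, 118.4 and 100.3 FPKM in WT scWAT, was among those called lower (-0.85 ± 0.12). Ctsk, at 63.84, 77.87 and 42.78 FPKM, missed the threshold (-0.88 ± 0.27, limma adjusted p = 0.0601) and passed it with the mouse as a block.

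All 11 glycan hydrolases were lower in scWAT, and 9 of them were called. Gusb, at 27.7, 33.32 and 25.22 FPKM in WT scWAT, fell by 1.19 (adjusted p = 0.00471), and Hexa, at 66.34, 65.66 and 56.22 FPKM, fell by 1.14 (adjusted p = 0.00478). Ids and Gaa, with 14.88, 14.43 and 14.63 FPKM and 36.55, 34.7 and 32.79 FPKM, did not pass. Of the 6 lipid genes 5 were lower, and 3 of them were called. Lipa fell to 45.64, 48.37 and 31.29 FPKM (-1.94 ± 0.24; adjusted p = 0.0051) and Psap to 894.6, 896.1 and 760.8 FPKM (-1.14 ± 0.15; adjusted p = 0.00574), while Asah1, at 32.7, 35.36 and 31.1 FPKM, fell by 0.77. Gm2a and Smpd1 had log2 differences of -0.18 and 0.23 and did not pass.

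All 6 membrane genes and all 6 pump genes were lower in scWAT, with 4 called in each group. Lamp1, at 201.5, 211.7 and 198.4 FPKM in WT scWAT, fell by 0.46 and Lamp2, at 30.58, 29.92 and 28.66 FPKM, by 0.45 (adjusted p = 0.00617 and 0.00727). Mcoln1, at 7.087, 7.178 and 6.642 FPKM, had -0.20 (adjusted p = 0.0632), and Scarb2, a receptor that carries glucocerebrosidase to lysosomes, -0.09. Atp6v0d2 fell to 11.14, 11.28 and 4.283 FPKM (-2.98 ± 0.39; adjusted p = 0.00565), and its ratio to Atp6v0d1 was 0.158, 0.156 and 0.0631. Atp6v1a, at 26.89, 26.8 and 22.28 FPKM, and Atp6v1b2, at 40.5, 39.38 and 34.46 FPKM, fell by 0.92 and 0.96. Atp6v0d1 and Atp6v1h did not pass (-0.11 and -0.11). Tfeb, with 3.606, 4.046 and 4.124 FPKM in WT scWAT, and Tfe3, with 6.155, 5.295 and 5.261 FPKM, fell by 0.50 and 0.48 (adjusted p = 0.0325 and 0.018). Both calls depended on single libraries: that of Tfeb was lost without any WT library other than epWAT C85, and that of Tfe3 without WT scWAT C85 or C99.

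Beside this, 18 of 19 macrophage markers were lower in scWAT, and 16 of them were called (median -1.29). All 10 adipocyte markers were higher, and 5 of them were called (median 0.58). Macrophage sums were 962.7 to 1110 FPKM in WT scWAT and 2453 to 3450 FPKM in WT epWAT; their part in the depot difference was not tested. Of the 59 other lysosomal genes 53 were lower, with 34 called lower and 1 called higher (median -0.32). They included Tcirg1, the a3 subunit of the pump (14.5 against 49.9 FPKM; -1.69, adjusted p = 0.00431) and the membrane glycoprotein gene Gpnmb (21.1 against 225.8 FPKM; -3.41, adjusted p = 0.0051). Sorting genes had 4 of 9 called lower and nutrient-sensing genes 4 of 13, Mitf among them (-0.91; adjusted p = 0.00603). Both of the 2 tested cystatins were lower and 1, Cstb, was called by limma (-0.93, adjusted p = 0.0113).

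**Figure D4:**
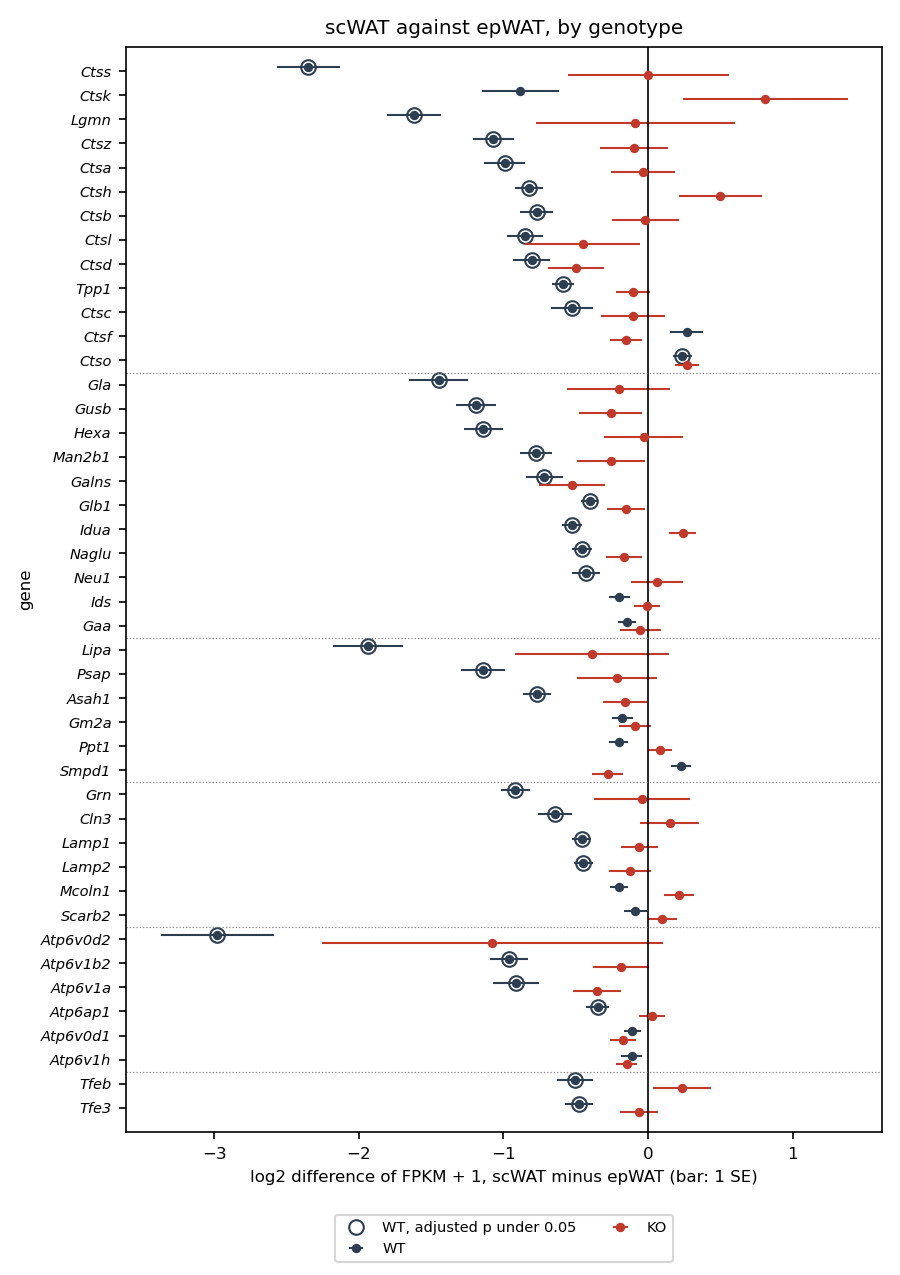
scWAT minus epWAT log2 difference of FPKM + 1 for each gene in WT and in KO mice, grouped by role. Points are fitted differences and bars 1 SE; in WT 41 of 44 points lie left of 0, with a median of -0.62, and in KO 33, with a median of -0.10.

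scWAT against epWAT in KO mice. No member passed between the depots of KO mice. Of 44 members 33 were lower in scWAT and 11 higher, the median was -0.10 (0.06 over all genes), and 0 passed, against 0.713% of 12623 genes; 4 members and 14.6% of all genes had an unadjusted p under 0.05, and limma-voom also called 0. The number lower was 18 without KO epWAT C7 and 21 without KO scWAT C695. Ctss averaged 119.0 ± 35.0 FPKM in KO scWAT and 138.8 ± 95.6 FPKM in KO epWAT (SD, n = 3; log2 difference 0.00 ± 0.56). Ctso, Smpd1, Ctsd and Idua had the smallest p, with log2 differences of 0.27, -0.28, -0.50 and 0.24 and adjusted p of 0.248 to 0.317. Mcoln1, with 8.251, 6.919 and 7.849 FPKM in KO scWAT, differed by 0.21 ± 0.10 (adjusted p = 0.411). Atp6v1a had 22.14, 22.26 and 19.74 FPKM in KO scWAT (-0.35 ± 0.17) and Atp6v1h 9.554, 9.715 and 9.491 FPKM (-0.15 ± 0.07). Atp6v0d2 had 9.649, 6.553 and 0.611 FPKM in KO scWAT, with C695 the lowest library in both depots. The lists of other lysosomal genes and macrophage markers had medians of -0.03 and -0.11, with 0 called.

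**Figure D5:**
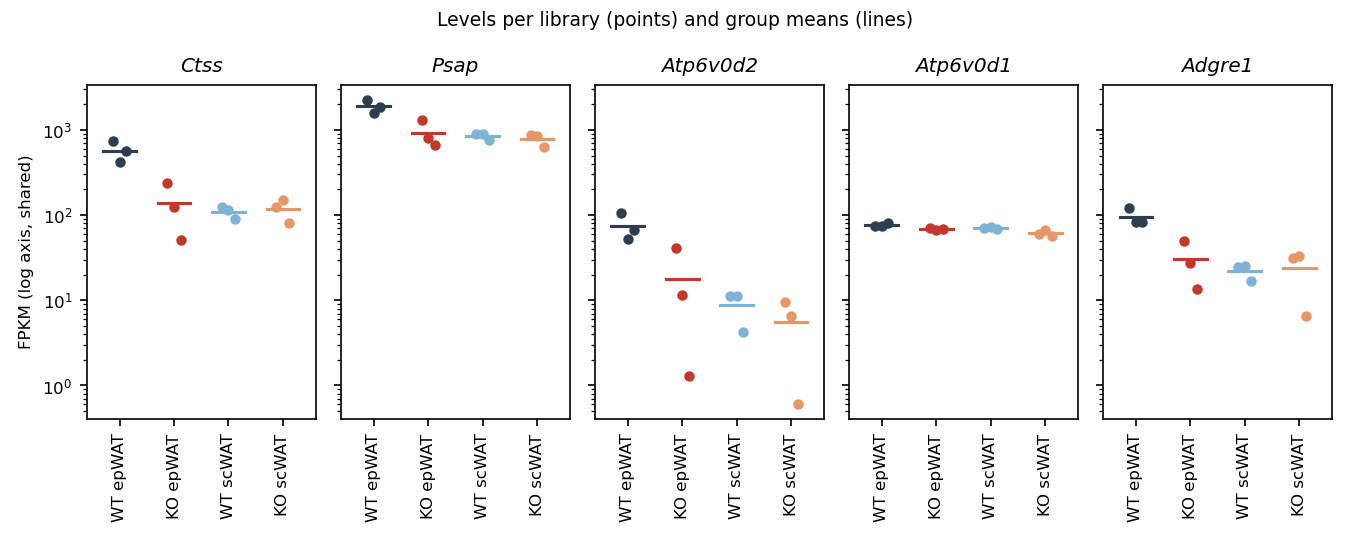
FPKM of Ctss, Psap, Atp6v0d2, Atp6v0d1 and the macrophage marker Adgre1 in each library, on a shared log axis. Points are libraries (left to right C75, C85, C99 in WT and C7, C34, C695 in KO) and lines group means; WT epWAT is highest for all 5 genes, by the least for Atp6v0d1, whose group means run from 61.2 to 75.8 FPKM.

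An interaction term tested if the genotype difference varied with depot. The difference of differences, KO minus WT in scWAT less KO minus WT in epWAT, was positive for 40 members and negative for 4, with a median of 0.49 (0.10 over all genes). One member, Idua, passed, against 1.03% of 13487 genes. Its KO difference was -0.45 in epWAT and 0.31 in scWAT, a difference of 0.76 ± 0.10 (adjusted p = 0.0196), and its libraries did not overlap between genotypes in either depot. With the mouse as a block the adjusted p was 0.0619 and 0 members passed, and the call was also lost without KO epWAT C34, WT epWAT C75 or C85, or WT scWAT C75, C85 or C99 (adjusted p = 0.0526 to 0.0729). The direction stayed the same, at 0.73 to 0.81 over all left-out libraries.

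Other members had larger differences of differences with more spread, and none of them passed. Ctss had 2.35 ± 0.66 (adjusted p = 0.0877), Ctsh 1.32 ± 0.33 (adjusted p = 0.0783), Hexa 1.11 ± 0.33 (adjusted p = 0.0965) and Mcoln1 0.42 ± 0.11 (adjusted p = 0.0867). Ctsa, with 39.36, 37.91 and 37.49 FPKM in WT scWAT and 42.51, 41.11 and 32.03 FPKM in KO scWAT, had 0.96 ± 0.28 (adjusted p = 0.094). Tpp1, with 29.93, 30.48 and 27.93 FPKM in WT scWAT and 29.1, 29.24 and 25.56 FPKM in KO scWAT, had 0.49 ± 0.14 (adjusted p = 0.0889). Smpd1 was the reverse, at -0.51 ± 0.12 (adjusted p = 0.0724). Gm2a, Atp6v0d1 and Ctso, whose KO differences had the same sign in the depots, had 0.09, -0.06 and 0.03. Leaving out both KO epWAT C7 and KO scWAT C695, 28 members were called with a positive and 1 (Smpd1) with a negative difference, against 8.59% of genes called positive, and the median was 0.73. Leaving out KO epWAT C7 alone gave 17 calls, against 6.93% of genes, and KO scWAT C695 alone 3 (Idua, Ctsh and Hexa), against 1.36% of genes. Macrophage markers had a median of 1.34 in this comparison with 0 of 19 called, and other lysosomal genes 0.34 with 0 of 59; among sorting and nutrient-sensing genes Nagpa (0.83; adjusted p = 0.0384) and Flcn (0.76; adjusted p = 0.0275) passed.

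Exons of 11 members overlap another gene, so that part of their reads may belong to a neighbour. Besides Idua and Cln3 these are Ctsa, which shares 495 of 4715 exon bases with Pltp on the opposite strand (mean 213.3 FPKM in WT epWAT and 107.9 in KO epWAT), Ppt1, which shares 129 of 3674 with Cap1, and Ctsb, Ctsz, Lamp1, Hexa, Glb1, Atp6v1h and Grn. For Ctsb the neighbour Fdft1 was at most 15.4 FPKM, and for Hexa the neighbour Tmem202 was at most 1.921 FPKM. The part of these overlaps in the differences was not tested for any of the 11 members.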

How the data were processed

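Per the labels' protocols, RNA was extracted with Trizol and made into Illumina libraries. The authors deposited one FPKM value per Ensembl gene and library; the unit was inferred from the values. Per the submitters' processing notes the genome build was mm9; aligner, counting program, annotation and strand setting are not given in the sources used here. FPKM times GENCODE M21 (GRCm38) exon length and 1 depth per library gave whole reads within 0.01 for 92.4% of genes in all 12 libraries, at depths of 15011093 to 18311564, so coordinates are from that annotation. Of the IDs 32553 matched it and 69 did not. Lipa and Ctsf did not give whole reads and are missing from limma-voom, which covered 42 members. FPKM is already scaled to depth, so a high gene class lowers the others.

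A gene entered a fit if 3 or more of its libraries had an FPKM of 1 or higher. Limma-trend was run on log2(FPKM + 1), a scale that understates changes of low genes, with Benjamini-Hochberg adjustment over all tested genes and a threshold of 0.05. Only the groups compared entered a fit; the interaction used all 12 libraries. Each SE is limma's moderated one. The procedure was run on simulated reads with known changes, drawn independently for each library. The simulation held no pairing of depots and no library with foreign transcripts, so it does not bear on those features. Members and gene lists (other hydrolases, pump, membrane, sorting, nutrient-sensing and cystatin genes, and markers of macrophages, adipocytes, lymphocytes, epididymis, osteoclasts, fibroblasts and endothelium) were chosen with earlier results of these data known. Library values are given for the 8 members with the smallest p in each comparison and 19 fixed by role; other lists are given by counts, median and up to 3 genes of smallest p. Genes named beyond this were chosen after their values were seen.

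A mouse code shared by an epWAT and a scWAT library was taken to mean 1 animal. The correlation of a mouse's deviations in epWAT with those in scWAT was -0.03 (C7), 0.17 (C34), 0.11 (C695), 0.36 (C75), 0.32 (C85) and 0.26 (C99). Alternatives were no filter, a minimum FPKM of 5, a pseudocount of 0.1 or 5, scaling by the upper quartile or by quantiles, robust moderation, limma-voom on recovered reads, a shared spread, the mouse as replicate block, and leaving out libraries. Promoters are from RefSeq. Fits ran in R 4.3.3 (limma 3.58.1 with statmod 1.5.0). Summaries and exact permutation tests ran in Python 3.11.15 with scipy 1.17.1, numpy 2.4.6 and pandas 2.3.3, and figures with matplotlib 3.10.9.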

Additional observations from a re-analysis of the deposited data

Results flagged for a closer look

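The KO difference of Idua, the iduronidase gene, differed between the depots by 0.76 on the log2 scale by the interaction test (limma adjusted p = 0.0196; 0.0619 with the mouse as a block). All 3 KO libraries were below all 3 WT libraries in epWAT and above them in scWAT. The call was also lost when some single libraries were left out. Exons of Idua overlap Dgkq and Slc26a1 on the opposite strand, and the part of their reads was not tested.

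For Cln3 the KO libraries also lay below WT in epWAT and above WT in scWAT. The difference of differences was 0.79 and did not pass the limma test (adjusted p = 0.105). Over all tested genes, all KO libraries lay below all WT libraries for 29.2% in epWAT and above them for 11.1% in scWAT. The share of genes with both was not counted. Levels of Cln3 in scWAT were 2.767 to 3.023 FPKM in WT and 3.228 to 3.515 FPKM in KO. Of its 5781 exon bases, 442 overlap Apobr, whose mean was 12.32 FPKM in WT epWAT and 5.671 FPKM in KO epWAT. In scWAT the mean of Apobr was 5.504 FPKM in WT and 4.826 FPKM in KO, the other direction from Cln3. The part of Apobr reads in the Cln3 values was not tested.

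Smpd1, acid sphingomyelinase, had the opposite pattern, with KO libraries above WT in epWAT and below WT in scWAT. Its difference of differences was -0.51 and did not pass the limma test (adjusted p = 0.0724). Over all tested genes, all KO libraries lay above all WT libraries for 9.6% in epWAT and below them for 13.4% in scWAT. The share with both was not counted here either.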

How the results depend on the processing

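Across filters, pseudocounts, scalings, robust moderation and limma-voom, the count of members called stayed at 0 in epWAT, scWAT and the KO depot comparison, at 29 to 34 in the WT depot comparison and at 1 (Idua) in the interaction. In epWAT the number called was 27 with a spread shared over the 12 libraries, 27 with the mouse as a random effect (replicate block), and 0 to 33 when 1 library was left out. In scWAT leaving out 1 library gave 0 to 1 called. In the interaction the mouse as a fixed replicate block gave 0 called, leaving out 1 library 0 to 17 with medians of 0.37 to 0.70, and leaving out KO epWAT C7 and KO scWAT C695 together 29 called with a median of 0.73. The replicate block moved no other comparison's count by over 1.5 times. The number of members lower in scWAT of KO mice was 18 to 35 over left-out libraries. Upper-quartile scaling moved the median of all genes in epWAT from -0.10 to 0.01 and that of members from -0.58 to -0.44, with 38 of 44 lower; it gave 7 members a negative interaction in place of 4, moving the median of all genes from 0.10 to -0.03, and turned Atp6v0d1 in epWAT to 0.01. Why single libraries and the shared spread move the calls was not tested. The lowest count behind a member's value in a library was 29 reads, for Atp6v0d2.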
